A study of Drosophila melanogaster with 8 samples.

Results

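Clock neurons were compared with neurons of all kinds from the fly brain, over every gene in the count files, to see which gene families and functions separate the populations once the clock genes and the G protein-coupled receptors are set aside. All 8 libraries of the series and all 17868 genes entered the comparison, and 7784 genes had enough reads to be tested. The clk856 libraries held RNA of EGFP-labeled cells from clk856 > EGFP flies, in which the clk856-GAL4 driver labels clock neurons, with about 500 sorted cells in each. The nSyb libraries held RNA of cells from nSyb > EGFP flies, in which the nSyb-GAL4 driver labels neurons in general, with about 1000 sorted cells in each. Both drivers acted through UAS-EGFP, so both populations carried GAL4 and EGFP. All flies were males about 2 weeks old, kept at 25 °C in 12 h of light and 12 h of dark, and brains were dissected at ZT2 or ZT14, with 2 libraries (R1 and R2) per population and time. About 30 brains were pooled for clk856 and about 10 for nSyb. The methods state that a pair of cell sets came from each dissociated sample, so R1 and R2 may share a dissociation, and the SDs and p-values then measure only the spread between libraries.

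The clock network of the fly brain is a small set of identified neurons in lateral and dorsal groups. They keep daily time with a transcriptional feedback loop, and they reach each other and their targets through neuropeptides as well as classical transmitters. A pan-neuronal sample averages over a great many neurons, among them the cholinergic, GABAergic and glutamatergic cells of the optic lobes and the mushroom bodies. A difference between the samples is therefore one of cell makeup and of RNA content together. In bulk RNA, fewer cells of a type and less RNA per cell cannot be told apart.

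The reads on genes numbered 4823985 to 8439193 in the clk856 libraries and 7970236 to 8449829 in the nSyb libraries. Levels are given as CPM, reads per 1000000 reads on library sizes scaled by TMM, and values of 4 libraries stand in the order ZT2 R1, ZT2 R2, ZT14 R1 and ZT14 R2. The clk856 libraries resembled each other more (r of 0.919 to 0.954 over genes) than the nSyb libraries did (0.810 to 0.839). Between populations r was 0.772 to 0.840, so some nSyb libraries were as close to a clk856 library as to each other. The biological coefficient of variation was 0.364 in clk856 against 0.824 in nSyb. The nSyb libraries held reads on fewer genes (7937 to 8400 against 8939 to 9991). The clock neuron markers Clk, per, tim, vri and Pdf summed to 539 to 2824 CPM in clk856 and 15.7 to 63.5 CPM in nSyb. The neuronal markers elav, nSyb, brp, Syt1, Syx1A and futsch were at 327 CPM or more in every library. The glial list (repo, alrm, Gs2, moody, wrapper, nrv2, Eaat1, Indy) summed to 175 to 276 CPM in clk856 and 282 to 697 CPM in nSyb, with 1 of the 6 tested members called, and the defining glial gene repo was at 0 in 3 of 4 nSyb libraries and at most 13.3 CPM elsewhere. Of the photoreceptor list, Rh3, Rh6 and Arr2 had no reads in any library, ninaE was at most 1.25 CPM and Rh5 at most 9.01 CPM, while norpA, a phospholipase C that is also used in the brain, was at 318 to 515 CPM against 523 to 636 CPM (adjusted p = 0.038). The other tested member, the scaffold gene inaD of the phototransduction complex, had no reads in clk856 and was at 3.18, 12.1, 13.3 and 13.99 CPM in nSyb (at least 22.1-fold lower, adjusted p = 0.0067), so that both were called lower. The muscle list had no member with enough reads to test. The hemocyte list summed to 214 to 327 CPM in clk856 and 222 to 373 CPM in nSyb, mostly from Pxn, with Hml at 0 in 7 of 8 libraries. The fat body list summed to 206 to 289 CPM and 94.8 to 138 CPM, mostly from FASN1, with no reads on Fbp1 or Lsp2. The Kenyon cell list summed to 1761 to 2308 CPM in clk856 and 1770 to 2378 CPM in nSyb, with 1 member higher and 2 lower of 8 tested. The part of these other cell types in the results was not tested. norpA kept its call only when the library left out was nSyb ZT14 R2 or clk856 ZT2 R1 (adjusted p of 0.06 to 0.1 otherwise).

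In edgeR's quasi-likelihood test with Benjamini-Hochberg adjustment, 805 genes were higher in clk856 (10.3% of those tested) and 521 were lower (6.69%), so that 17.0% were called in either direction at an adjusted p under 0.05. Over all genes the median log2 fold change (clk856 over nSyb) was -0.01. The split between directions depended on the scaling: 60.7% of the calls were higher with TMM and 46.2% with library size alone (675 higher and 787 lower), where the median moved to -0.14. The 39 families and functions described here held 1581 tested genes and 405 of the 1326 calls (30.5%). They were compiled from gene names and known functions, and each is read against the shares over all genes. In the higher direction the ribosomal proteins and the transcripts of the mitochondrial genome lay farthest from those shares, and in the lower direction the subunits of ligand-gated chloride channels and of nicotinic receptors.

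**Figure D1:**
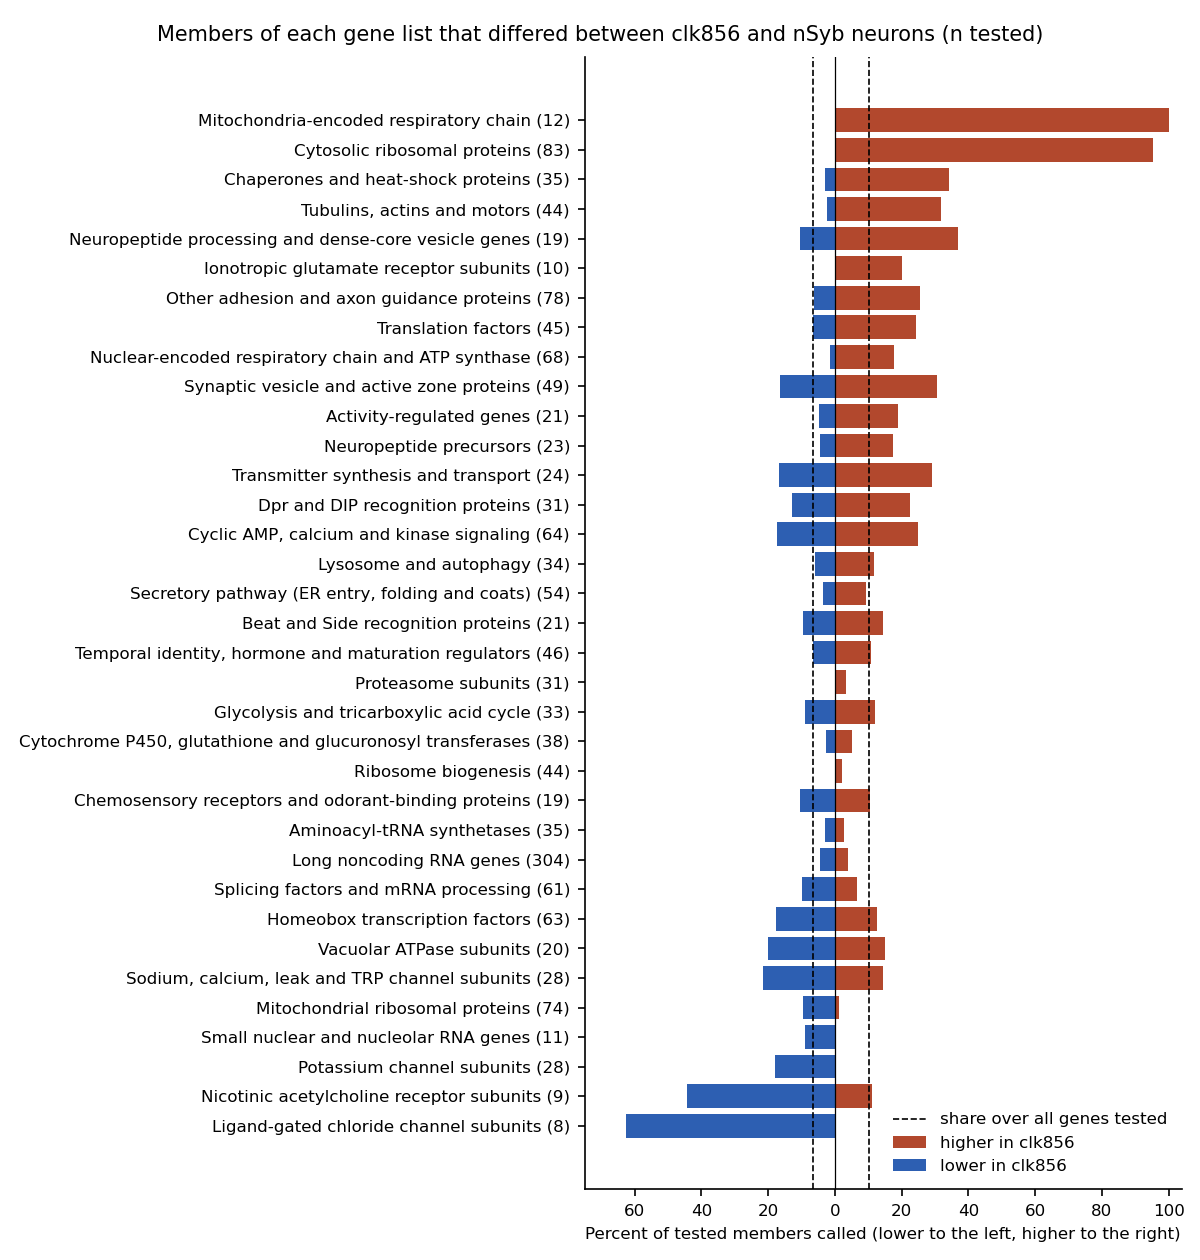
Percent of the tested members of each gene list that were called higher (right) or lower (left) in clk856, for lists with at least 8 tested members; the number tested is in parentheses and the dashed lines mark 10.3% and 6.69%, the shares over all 7784 genes. Cytosolic ribosomal proteins (95.2% higher) and mitochondria-encoded genes (100% higher) lie farthest to the right, and ligand-gated chloride channel subunits (62.5% lower) farthest to the left.

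Cytosolic ribosomal protein genes were higher in clock neurons almost without exception. These proteins form the small (RpS) and large (RpL) subunits of the ribosome that translates nuclear-encoded mRNA. Of 83 tested members, 79 were higher, none was lower, and the median log2 fold change was 1.31. Their summed level was 39781 ± 3156 CPM in clk856 and 17331 ± 1365 CPM in nSyb (mean ± SD, n = 4), a ratio of 2.30, and the lowest clk856 library (35711) lay well above the highest nSyb library (19197). RpS21 was at 209.7, 279, 267 and 236 CPM in clk856 and at 72.7, 35.3, 37.6 and 38.8 CPM in nSyb. This was the highest fold of the family (log2 fold change 2.43, SE 0.25, adjusted p = 0.0002), and the populations did not overlap. RpS4 was at 882, 979, 942 and 924 CPM against 217, 232, 243 and 188 CPM (log2 fold change 2.08, SE 0.10, adjusted p = 8.1e-06). At the other end of the family, RpS3A was at 743, 909, 917 and 911 CPM against 706, 732, 656 and 596 CPM, a small difference that still passed (log2 fold change 0.37, adjusted p = 0.033). The members that did not pass were RpL27A (356 to 430.2 against 292 to 416 CPM) and the duplicates RpS10a, RpS14b and RpS15Ab. Reads of the last pair may be split with their near-identical copies RpS14a and RpS15Aa. The count was 78 with library size alone and 76 to 79 when any library was left out, and it was 66 among the ZT14 libraries alone. Among the ZT2 libraries alone only 8 genes of any kind were called higher, where RpS4 kept its call and RpS21 lost it. RpS3A kept its call only when the library left out was nSyb ZT2 R1, nSyb ZT2 R2 or clk856 ZT2 R1 (adjusted p of 0.07 to 0.092 otherwise).

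Other parts of the translation apparatus did not follow as a block. Of 45 translation factors, 11 were higher and 3 lower (24.4% and 6.67%), with a median log2 fold change of 0.18. eIF3a, the largest subunit of the initiation complex eIF3, was at 200.3, 228, 177 and 169.5 CPM against 34.4, 40.6, 29.6 and 44.3 CPM (log2 fold change 2.38, SE 0.19, adjusted p = 5.7e-05). The elongation factors eEF1alpha1, which brings aminoacyl-tRNA to the ribosome, and eEF2, which drives translocation, were at 547 to 734 against 173 to 297 CPM and at 1224 to 1368 against 465 to 547 CPM, with log2 fold changes of 1.39 and 1.35 (adjusted p = 0.00049 and 1.0e-05). On the lower side stood eIF2Bbeta (log2 fold change -0.70, adjusted p = 0.033), a subunit of the exchange factor for eIF2, with eIF3m (-0.46, adjusted p = 0.035) and CG7414 (-1.20, adjusted p = 0.0019). Without clk856 ZT2 R1, ZT2 R2 or ZT14 R2, 7 factors were higher. Of 44 ribosome biogenesis genes 1 was called (2.27%). Of 35 aminoacyl-tRNA synthetases 1 was higher and 1 lower (2.86% each), and of 31 proteasome subunits 1 was higher (3.23%). The biogenesis gene was Fib, the nucleolar RNA methyltransferase fibrillarin, at 6.13, 3.53, 4.55 and 15.8 CPM in clk856 and at no more than 2 reads in any nSyb library. Its level was at least 21.4-fold higher, taking 3 reads per library as the limit of detection. eIF2Bbeta kept its call only when the library left out was nSyb ZT2 R2, nSyb ZT14 R2 or clk856 ZT14 R1 (adjusted p of 0.057 to 0.098 otherwise). eIF3m kept its call only when the library left out was nSyb ZT14 R1 or nSyb ZT14 R2 (adjusted p of 0.052 to 0.091 otherwise). Fib lost its call without clk856 ZT14 R2 (adjusted p = 0.056).

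Transcripts of the mitochondrial genome had the highest median fold change of the 39 lists. The mitochondrial genome encodes core subunits of the respiratory complexes and of ATP synthase, and its mRNAs are polyadenylated and so are captured with nuclear mRNA. All 12 tested members were higher, with a median log2 fold change of 2.83. Their summed level was 18884 ± 3950 CPM in clk856 and 3162 ± 274 CPM in nSyb (mean ± SD, n = 4), a ratio of 5.97. COX1, the catalytic subunit of cytochrome c oxidase, was at 4548, 7270.3, 5673 and 5724 CPM in clk856 and at 1067, 1269, 1261 and 1097 CPM in nSyb (log2 fold change 2.31, SE 0.13, adjusted p = 8.1e-06). CYTB, of complex III, was at 2496, 4069, 3349 and 3196 CPM against 454, 608, 519 and 487 CPM (log2 fold change 2.66, SE 0.15, adjusted p = 8.1e-06). The clk856 ZT2 R2 library was highest and ZT2 R1 lowest for both genes, and the 2 populations did not overlap. The NADH dehydrogenase genes ND2, ND5 and ND6 had log2 fold changes of 3.68, 3.26 and 3.21. At least 11 of the 12 were called without any 1 library, and 12 with each other scaling. ND2 lost its call without clk856 ZT14 R1 (adjusted p = 0.052).

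Nuclear genes for the same organelle had far smaller median fold changes. The 74 nuclear-encoded proteins of the mitochondrial ribosome, which translates those transcripts, had a median log2 fold change of -0.21, with 1 higher and 7 lower (1.35% and 9.46%). Their sums overlapped between populations (4627 to 5502 CPM against 5452 to 6858 CPM). mRpS35 was at 54.8, 49.8, 60.1 and 69.9 CPM against 163, 108, 124 and 91.1 CPM (log2 fold change -1.05, adjusted p = 0.01), and mRpS9 was the single member called higher (1.24, adjusted p = 0.016), with 25.1% of its exon bases shared with another gene. The count of lower members was 3 without clk856 ZT2 R2 or ZT14 R2 and 4 without clk856 ZT2 R1. Of 68 nuclear-encoded subunits of the respiratory chain and ATP synthase, 12 were higher and 1 lower, with a median of 0.03. These shares were 17.6% and 1.47%, beside 10.3% and 6.69% over all genes. With library size alone 4 were higher and 6 lower and the median was -0.10. The members called higher included the cytochrome c oxidase subunits COX4, COX5A, COX7C, COX8 and cype. COX4 (0.52), COX5A (0.42) and cype (0.57) were not called with library size alone (adjusted p of 0.052 to 0.104), nor COX5A and cype with upper quartile scaling (0.0598 and 0.0567). COX7C was at 382 to 537 against 252 to 305 CPM (log2 fold change 0.76, adjusted p = 0.0035) and COX8 at 689.6 to 905 against 457 to 552 CPM (0.66, adjusted p = 0.0031). Leaving out a library left 5 to 13 members higher, and 7 or fewer without nSyb ZT2 R2, nSyb ZT14 R2, clk856 ZT2 R2 or either clk856 ZT14 library. mRpS9 lost its call without clk856 ZT2 R2 (adjusted p = 0.068). COX5A kept its call only when the library left out was nSyb ZT2 R1, nSyb ZT14 R1 or clk856 ZT2 R1 (adjusted p of 0.054 to 0.076 otherwise). cype kept its call only when the library left out was nSyb ZT2 R1, nSyb ZT14 R1 or clk856 ZT2 R1 (adjusted p of 0.06 to 0.091 otherwise).

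**Figure D2:**
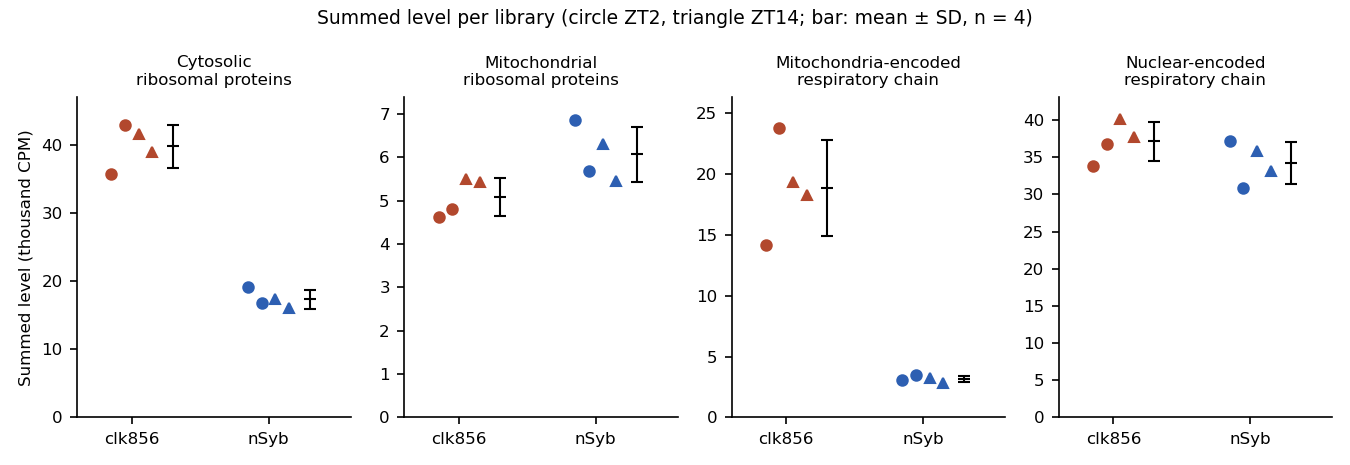
Summed level in 1000 CPM of 4 gene lists in each library (circles ZT2, triangles ZT14), with the mean and SD of 4 libraries per population as bars. The populations separate for cytosolic ribosomal proteins (35711 to 42831 against 16012 to 19197 CPM) and for mitochondria-encoded genes, and overlap for the nuclear-encoded mitochondrial lists.

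Chaperone genes with raised levels in clock neurons were led by the stress-inducible heat-shock proteins. Heat-shock proteins of the Hsp70 and small Hsp classes hold unfolding proteins and are induced by heat and other stress, whereas cognate chaperones such as Hsc70-4 and Hsp83 are made all the time. By the methods, dissected brains waited on ice for the rest of their batch, about 30 for clk856 and 10 for nSyb. They were then treated with enzymes at room temperature. The part of this handling in the levels was not tested, and it cannot be told apart from the populations. Of 35 tested members 12 were higher and 1 was lower (34.3% and 2.86%), with a median log2 fold change of 0.63. Hsp68, an inducible Hsp70 relative on 3R (24055080 to 24057310, dm6), was at 789, 920.1, 361 and 421 CPM in clk856 and at 31.00, 31.6, 122 and 109 CPM in nSyb (log2 fold change 3.09, SE 0.52, adjusted p = 0.0031). It was thus higher at ZT2 than at ZT14 in clk856 and lower at ZT2 than at ZT14 in nSyb. The log2 difference between populations changed by -3.01 from ZT2 to ZT14 (edgeR interaction of population and time, adjusted p = 0.0139), and Hsp68 was the only gene of 7784 called in that test, where 526 had an unadjusted p under 0.05. With the replicate number as a block the adjusted p was 0.0555 and no gene passed.

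Small heat-shock protein genes were also higher. Hsp27 was at 305, 257, 182 and 250.4 CPM against 45.5, 19.8, 36.02 and 75.5 CPM (log2 fold change 2.49, SE 0.36, adjusted p = 0.0014). Hsp23 was at 1037, 1077, 747 and 977 CPM against 184, 125, 206 and 238 CPM (log2 fold change 2.35, SE 0.20, adjusted p = 6.7e-05), and Hsp26 at 692 to 1165 against 172 to 369.5 CPM (1.94, adjusted p = 0.00084). None of the 3 overlapped between populations. The co-chaperone stv, which partners Hsp70, was at 168 to 381 against 91.96 to 121 CPM (log2 fold change 1.34, adjusted p = 0.0067), and Hsc70-3, the chaperone of the endoplasmic reticulum, at 599.8 to 699 against 299 to 432 CPM (0.86, adjusted p = 0.0018). The abundant cognate chaperones did not pass the test: Hsc70-4 was at 1448 to 1689 against 1495 to 1911 CPM and Hsp83 at 1750.3 to 1864 against 1590.1 to 2180.3 CPM. Among the near-identical Hsp70 copies on 3R, Hsp70Ba was called higher (13.96 to 26.2 against 3.82 to 5.08 CPM, adjusted p = 0.035) and Hsp70Bb lower (13.8 to 18.5 against 30.9 to 48.1 CPM, adjusted p = 0.037), neither with time as a covariate, the replicate block or no filter, and the division of reads between such copies is uncertain. Between 11 and 13 members were higher when any library was left out. With limma and weights per population, neither stv (adjusted p = 0.057) nor Hsp70Ba (adjusted p = 0.102) was called. Hsp70Ba kept its call only when the library left out was nSyb ZT2 R1, nSyb ZT14 R1 or nSyb ZT14 R2 (adjusted p of 0.0503 to 0.11 otherwise). Hsp70Bb kept its call only when the library left out was nSyb ZT2 R1 or nSyb ZT2 R2 (adjusted p of 0.058 to 0.1 otherwise).

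**Figure D3:**
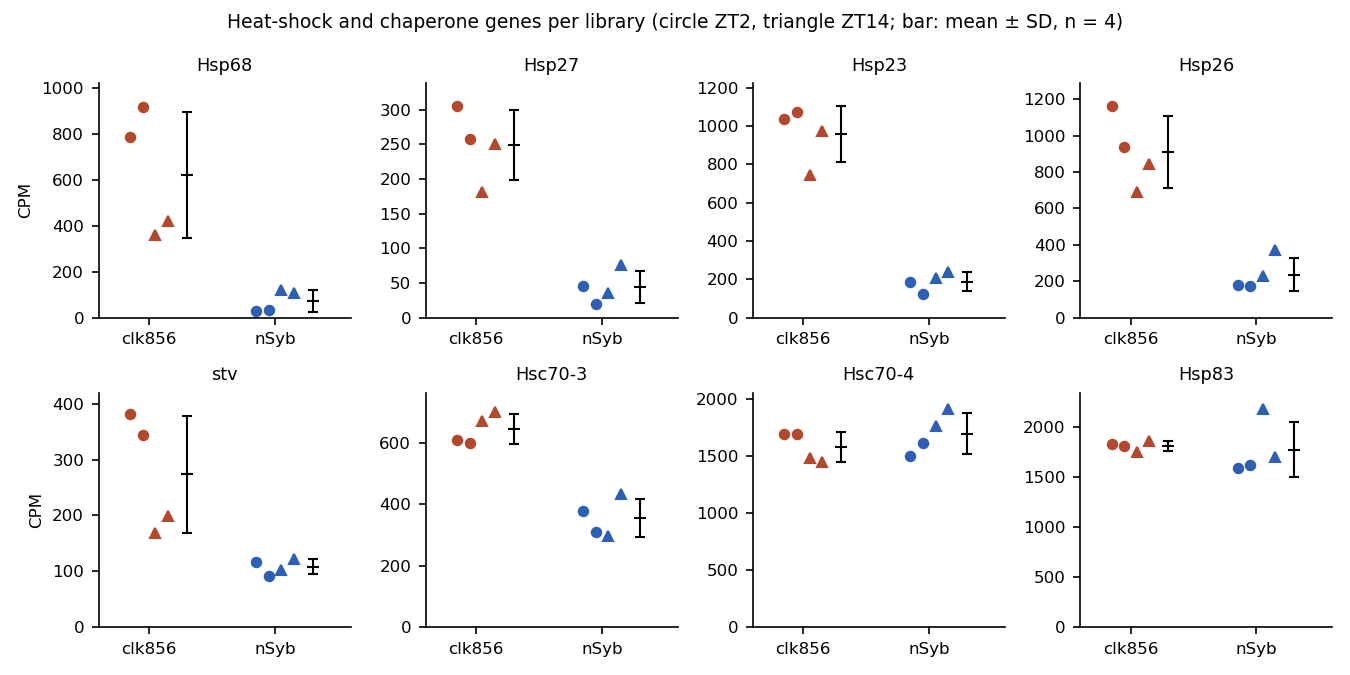
Levels in CPM of 8 heat-shock and chaperone genes in each library (circles ZT2, triangles ZT14), with mean and SD of 4 libraries per population. Hsp68, Hsp27, Hsp23 and Hsp26 are higher in every clk856 library than in any nSyb library, and Hsp83 and Hsc70-4 overlap.

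The transmitter genes with the highest fold changes included genes of the biogenic amines. Dopamine, serotonin, octopamine and tyramine are packed into vesicles by a shared transporter, Vmat, and act mostly through G protein-coupled receptors. Of 24 tested genes for transmitter synthesis and transport 7 were higher and 4 lower (29.2% and 16.7%), with a median log2 fold change of 0.38. The tyrosine hydroxylase gene ple, whose product makes the precursor of dopamine, was at 671, 743, 1566 and 811 CPM in clk856 and at 85.4, 146, 262 and 41.5 CPM in nSyb (log2 fold change 2.82, SE 0.52, adjusted p = 0.0048). The dopamine transporter gene DAT was at 801, 806, 1287 and 864 CPM against 105, 165, 427 and 62.4 CPM (log2 fold change 2.31, SE 0.51, adjusted p = 0.012). Vmat was at 3299, 1613, 3014 and 2469 CPM against 276, 393, 761 and 66.1 CPM (log2 fold change 2.80, SE 0.58, adjusted p = 0.009), with 26.2% of its exon bases shared with another gene. For ple and DAT the ZT14 R1 library was the highest within both populations, and no library of one population reached the range of the other. The nSyb libraries varied widely among themselves for all 3 genes. Ddc, the decarboxylase that follows ple and also serves serotonin, went the other way at 605 to 829 against 961 to 1066 CPM (log2 fold change -0.47, adjusted p = 0.014). The serotonin transporter gene SerT did not pass, with 822, 24.9, 273 and 158 CPM in clk856 and 0.118, 42.6, 1.45 and 0 CPM in nSyb. A further amine gene, Tdc2, was called higher in edgeR. It was not called with limma and weights per population (log2 fold change 8.32, adjusted p = 0.146).

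Genes for acetylcholine and its transport were called in both directions. ChAT, which makes acetylcholine, was at 296, 242, 248 and 261 CPM in clk856 and at 429.6, 423, 481 and 419 CPM in nSyb (log2 fold change -0.74, SE 0.11, adjusted p = 0.0014), and 15.1% of its exon bases are shared with another gene. The vesicular acetylcholine transporter gene VAChT, which lies in the same locus, overlapped between populations (426 to 609 against 273 to 452 CPM), as did the vesicular glutamate transporter gene VGlut (389 to 681 against 335 to 603 CPM) and the GABA synthesis gene Gad1 (880.0 to 1675 against 814 to 1462 CPM). The choline transporter gene ChT was called higher, at 107 to 152 against 26.96 to 81.6 CPM (log2 fold change 1.24, adjusted p = 0.031), but 69.5% of its exon bases are shared with another gene. A vesicular transporter known from the mushroom bodies, prt, was at 16.5 to 38.9 against 44.7 to 105 CPM (-1.49, adjusted p = 0.025), and the glutamate transporter gene Eaat1, a member of the glial list, at 6.22 to 57.2 against 85.3 to 172 CPM (-1.78, adjusted p = 0.046). The lower calls numbered 2 without nSyb ZT2 R2, clk856 ZT2 R2 or clk856 ZT14 R1. ChT lost its call without nSyb ZT2 R1, clk856 ZT2 R1, clk856 ZT14 R1 or clk856 ZT14 R2 (adjusted p of 0.059 to 0.087). prt lost its call without nSyb ZT2 R2, clk856 ZT2 R2, clk856 ZT14 R1 or clk856 ZT14 R2 (adjusted p of 0.066 to 0.074). Eaat1 kept its call only when the library left out was clk856 ZT2 R1 or clk856 ZT14 R2 (adjusted p of 0.054 to 0.1 otherwise).

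Besides Pdf, 3 neuropeptide genes were called higher and 1 lower among 23 tested. The core clock set member Pdf is counted in this list. With it the shares were 17.4% higher and 4.35% lower, beside 10.3% and 6.69% over all genes. Neuropeptides are cut from precursors in the secretory pathway and stored in dense-core vesicles, and clock neurons use several of them as signals. AstC, encoding allatostatin C, was at 2503, 2114, 2035 and 2050.0 CPM in clk856 and at 32.9, 89.6, 231 and 38.6 CPM in nSyb (log2 fold change 4.47, SE 0.59, adjusted p = 0.00081). AstA, encoding allatostatin A, was at 1074, 1320.4, 698 and 557 CPM against 60.2, 0.694, 49.6 and 35.5 CPM (log2 fold change 4.64, SE 0.84, adjusted p = 0.0045), and both genes were apart in all libraries. Hug, encoding hugin, was at 1283, 3.53, 1.67 and 18.7 CPM against 0, 0, 4.94 and 0.113 CPM, so that its populations overlapped and 1 clk856 library held nearly all the signal (log2 fold change 8.03, adjusted p = 0.042). Crz, encoding corazonin, was at 0 to 14.99 against 18.8 to 189.9 CPM (log2 fold change -3.61, SE 1.09, adjusted p = 0.048). The median over the 23 precursors was 1.63, and 18 of them had a positive log2 fold change. Hug lost its call without nSyb ZT2 R1, nSyb ZT2 R2, nSyb ZT14 R2 or clk856 ZT2 R1 (adjusted p of 0.085 to 0.49). With limma and weights per population, neither Hug (adjusted p = 0.56) nor Crz (adjusted p = 0.063) was called. Crz kept its call only when the library left out was nSyb ZT14 R1, nSyb ZT14 R2 or clk856 ZT14 R1 (adjusted p of 0.062 to 0.14 otherwise).

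Enzymes and vesicle proteins that peptides share were called mostly higher. Of 19 tested genes of neuropeptide processing and dense-core vesicles 7 were higher and 2 lower (36.8% and 10.5%), with a median log2 fold change of 0.41, and the 7 include Vmat, the amine transporter gene given above, which is in both lists. amon, the prohormone convertase PC2 that cuts precursors, was at 1660.1, 1631, 1160.4 and 1444 CPM in clk856 and at 229.9, 411, 403 and 352 CPM in nSyb (log2 fold change 2.08, SE 0.19, adjusted p = 9.7e-05). The carboxypeptidase gene svr, which trims the cut ends, was at 2143, 1959, 1714 and 1728 CPM against 622, 864, 623 and 754 CPM (log2 fold change 1.40, SE 0.13, adjusted p = 9.2e-05). IA-2, a membrane protein of dense-core vesicles, was at 9923, 11099, 9289 and 8644 CPM against 3620.1, 3831, 3562 and 3843 CPM and had the largest difference in CPM of all called genes outside the clock and receptor sets (log2 fold change 1.39, SE 0.08, adjusted p = 8.1e-06). The PC2 helper 7B2 and the amidating enzyme Phm were called higher with smaller values (0.86 and 0.41, adjusted p = 0.00031 and 0.036). Cadps, which primes dense-core vesicles for release, was lower, at 427, 504.8, 694 and 618 CPM against 844, 1002, 968 and 964 CPM (log2 fold change -0.75, SE 0.15, adjusted p = 0.0064). The peptidase gene Nep2 was the other lower member (-2.59, adjusted p = 0.036). The higher count was 6 or 7 without any 1 library. Phm kept its call only when the library left out was nSyb ZT2 R1 or clk856 ZT14 R1 (adjusted p of 0.063 to 0.096 otherwise). Nor was Phm called with limma and weights per population (adjusted p = 0.067), library size alone (0.13) or upper quartile scaling (0.059). Nep2 kept its call only when the library left out was nSyb ZT2 R1, clk856 ZT2 R1 or clk856 ZT14 R2 (adjusted p of 0.063 to 0.095 otherwise).

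**Figure D4:**
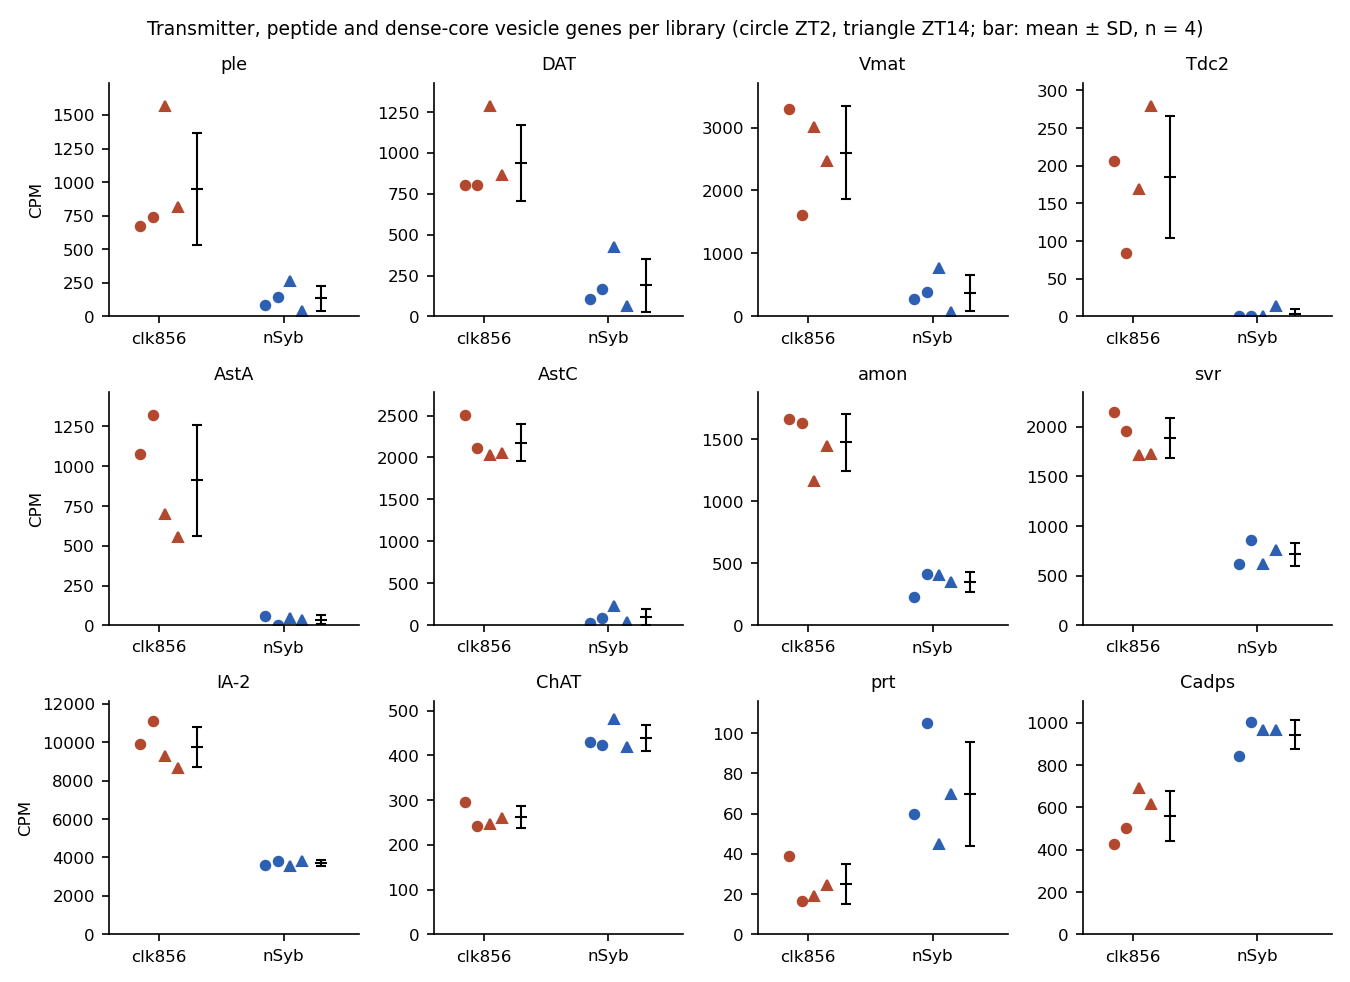
Levels in CPM of 12 genes for transmitters, neuropeptides and dense-core vesicles in each library (circles ZT2, triangles ZT14), with mean and SD of 4 libraries per population. The amine, peptide and processing genes are higher in all 4 clk856 libraries, and ChAT, prt and Cadps are lower in all 4.

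Receptor subunits for fast inhibition were lower in clock neurons. Ligand-gated chloride channels answer GABA, glutamate or histamine, and a channel is built of several subunits. Of 12 subunit genes in the files 8 were tested. Of these 5 were lower and none was higher, a share of 62.5% beside 6.69% over all genes. Also 5 were lower under each other scaling and without any 1 library. The 5 include CG8916 and ort, which could pass the read filter only through nSyb, so their direction could hardly have differed. CG8916, which encodes a GABA-A receptor-like subunit and lies on X (15921955 to 15924558, dm6), was at 0, 0.882, 0 and 0 CPM in clk856 and at 159, 142, 189.6 and 144 CPM in nSyb, that is, it had reads in a single clk856 library (log2 fold change -9.82, SE 0.71, adjusted p = 2.7e-05). Its neighbour Lcch3 (15925105 to 15928529), another GABA receptor subunit gene, was at 115.4, 108, 86.8 and 63.3 CPM against 175, 251, 182 and 159 CPM (log2 fold change -1.04, SE 0.23, adjusted p = 0.011), and 31.3% of its exon bases are shared with another gene. ort, the histamine-gated channel of cells that receive photoreceptor input, was at 3.75, 0, 0 and 0 CPM against 71.2, 116, 127 and 127 CPM (log2 fold change -6.71, SE 1.13, adjusted p = 0.003). The fitted fold changes of CG8916 and ort depend on how near-zero counts are treated and are not bounds. Rdl, the main GABA-A receptor subunit of the fly brain, was lower by a modest amount at 1224 to 1387 against 1854 to 2179.6 CPM (-0.65, adjusted p = 0.00043), as was the glutamate-gated GluClalpha at 397 to 513 against 677 to 857 CPM (-0.77, adjusted p = 0.0017).

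Cationic receptor subunits were divided. Nicotinic receptors carry fast cholinergic input, and of 9 tested subunit genes 4 were lower and 1 was higher (44.4% and 11.1%). nAChRalpha7 was at 527, 563, 795 and 667 CPM in clk856 and at 914, 1301, 1129 and 921 CPM in nSyb (log2 fold change -0.74, SE 0.16, adjusted p = 0.01). nAChRalpha6 and nAChRbeta1 were lower by like amounts (-0.70 and -0.63, adjusted p = 0.0031 and 0.00047). nAChRalpha1 was at 233 to 271 against 166 to 193 CPM (0.48, adjusted p = 0.02) and was not called with library size alone. Of 10 ionotropic glutamate receptor subunits 2 were higher and none lower. GluRIA, an AMPA-type subunit, was at 228, 255.5, 143 and 192 CPM against 67.1, 76.6, 47.1 and 70.4 CPM (log2 fold change 1.65, SE 0.23, adjusted p = 0.00097). Nmdar1, the obligate NMDA receptor subunit, was at 263, 281, 260.0 and 282 CPM against 127, 100.05, 70.00 and 84.7 CPM (log2 fold change 1.51, SE 0.19, adjusted p = 0.00052), while its partner Nmdar2 did not pass (109 to 210.5 against 160.5 to 195 CPM). Both higher genes were called without any 1 library. nAChRalpha1 lost its call without clk856 ZT14 R1 or clk856 ZT14 R2 (adjusted p of 0.069 to 0.073).

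No potassium channel gene was called higher, and other cation channel genes were called in both directions. Of 28 potassium channel genes 5 were lower (17.9%) and none higher, with a median log2 fold change of -0.26. Without nSyb ZT2 R2 3 were lower, and without nSyb ZT2 R1 2 were higher. Sh, the A-type channel Shaker, was at 1394, 1539, 1346 and 1425 CPM in clk856 and at 2356, 2987, 2833 and 2349 CPM in nSyb (log2 fold change -0.88, SE 0.09, adjusted p = 0.00022). The calcium-activated channel slo and the leak-type channel Task7 were at 709 to 884 against 971 to 1332 CPM and at 190.4 to 248 against 287 to 366 CPM (-0.50 and -0.62, adjusted p = 0.014 and 0.0089). Of 28 sodium, calcium, leak and TRP channel genes 4 were higher and 6 lower (14.3% and 21.4%). NaCP60E, a relative of the sodium channel para, was at 1089, 1095, 1102 and 983 CPM against 1952, 2553, 2484 and 1858 CPM (log2 fold change -1.05, SE 0.11, adjusted p = 0.00022). cac, the calcium channel of presynaptic terminals, was at 680.2, 770.2, 675 and 658 CPM against 1203, 1434, 1206 and 1091 CPM (log2 fold change -0.83, SE 0.10, adjusted p = 0.00049). The other pore and auxiliary subunits of calcium channels called were also lower: Ca-alpha1T (-0.53), Ca-alpha1D (-0.47) and stj (-0.45). By contrast the sodium leak channel na, which is known to set the excitability of clock neurons, was at 115.0, 150.1, 106 and 109 CPM against 62.7, 69.3, 67.2 and 79.7 CPM (log2 fold change 0.78, SE 0.18, adjusted p = 0.016). Its partner Mid1 was also called higher (0.84, adjusted p = 0.0047). A further partner, unc79, overlapped between populations and was called narrowly (0.49, adjusted p = 0.046), with an adjusted p of 0.0508 to 0.125 with library size alone, upper quartile scaling, either other filter, time as a covariate or the replicate block, and unc80 did not pass (359 to 556 against 320.3 to 427 CPM). The higher calls numbered 2 without clk856 ZT2 R2. Atpalpha, the sodium pump that restores the gradients, was at 6081 to 6884 against 3320.1 to 3710.3 CPM (0.87, adjusted p = 2.6e-05). The cyclic nucleotide-gated subunits split, with CngB higher (2.11, adjusted p = 0.0029) and Cngl lower (-0.59, adjusted p = 0.016). Ca-alpha1D lost its call without nSyb ZT2 R2, clk856 ZT2 R1, clk856 ZT14 R1 or clk856 ZT14 R2 (adjusted p of 0.052 to 0.067). stj lost its call without nSyb ZT14 R2, clk856 ZT14 R1 or clk856 ZT14 R2 (adjusted p of 0.056 to 0.068). na lost its call without clk856 ZT2 R2 (adjusted p = 0.054). unc79 kept its call only when the library left out was nSyb ZT14 R2 (adjusted p of 0.079 to 0.13 otherwise).

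**Figure D5:**
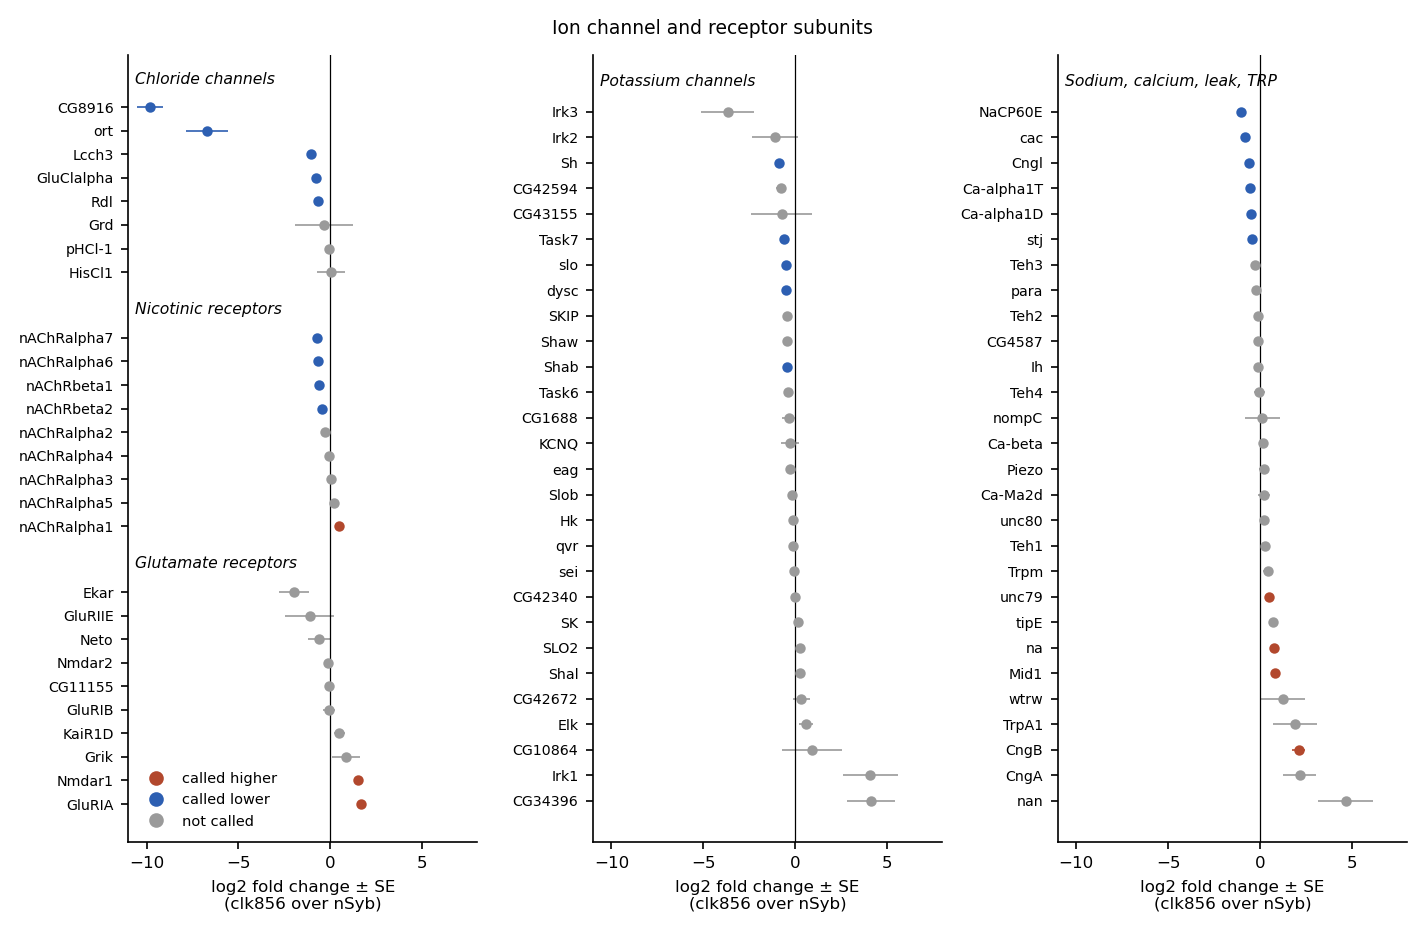
Log2 fold change (clk856 over nSyb) with its standard error for every tested member of 5 lists of ion channel and receptor subunits, colored by the call. Points left of 0 are lower in clk856; all called chloride channel subunits and potassium channels lie left of 0, and the leak channel genes na, Mid1 and unc79 lie right of it.

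Vesicle cycle genes were called in both directions. Of 49 tested genes 15 were higher and 8 lower (30.6% and 16.3%), and with library size alone 12 were higher and 13 lower. comt, the NSF ATPase that takes apart used SNARE complexes, was at 604, 532, 752 and 822 CPM in clk856 and at 92.8, 154, 113 and 145 CPM in nSyb (log2 fold change 2.42, SE 0.20, adjusted p = 6.4e-05). Synj, a phosphatase of vesicle uncoating, was at 239, 339, 319.6 and 263 CPM against 53.9, 112, 33.7 and 49.3 CPM (log2 fold change 2.22, SE 0.34, adjusted p = 0.0017). Further endocytosis genes were called higher, AP-2alpha (1.92), Eps-15 (1.32) and EndoA (0.79). The synaptotagmin gene Sytbeta was also higher, at 154 to 171 against 29.6 to 56.4 CPM (1.95, adjusted p = 0.00057). The SNARE gene nSyb, whose promoter marks the comparison population, did not pass (2145 to 2494 against 1696 to 1972 CPM, 0.25, adjusted p = 0.052), nor did the calcium sensor gene Syt1 (1467 to 1756 against 1491 to 1746 CPM). The lower genes included Tomosyn, which restrains SNARE assembly, at 553 to 853 against 950.1 to 1372 CPM (-0.72, adjusted p = 0.01), the priming factor unc-13 at 1450.2 to 1790.4 against 2159 to 2600.0 CPM (-0.59, adjusted p = 0.0015), with 25.2% of its exon bases shared, and the SNARE Syx1A at 472 to 557 against 601 to 837 CPM (-0.54, adjusted p = 0.012). brp, the active zone scaffold, was at 738 to 792 against 532 to 687 CPM (0.36, adjusted p = 0.032) and was not called with library size alone. Between 11 and 16 genes were higher and 6 to 10 lower when any library was left out. brp kept its call only when the library left out was nSyb ZT14 R1 (adjusted p of 0.06 to 0.083 otherwise).

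Second messenger genes split in the same mixed way, with 16 of 64 higher and 11 lower (25.0% and 17.2%). Pka-C1 and Pka-R1, a catalytic and a regulatory subunit of protein kinase A, were at 479.9 to 720.3 against 293 to 364 CPM and at 475 to 764 against 186 to 277 CPM (0.75 and 1.30, adjusted p = 0.0066 and 0.00085). The catalytic subunit gene Pka-C3 was lower, at 20.6 to 46.9 against 78.3 to 125 CPM (-1.53, adjusted p = 0.0073). The phosphodiesterase gene Pde11, whose product breaks down cyclic nucleotides, was at 202, 217, 146 and 189 CPM in clk856 and at 33.95, 49.7, 20.4 and 59.7 CPM in nSyb (log2 fold change 2.20, SE 0.32, adjusted p = 0.0013). The calcium pump SERCA of the endoplasmic reticulum was at 335 to 504 against 36.02 to 201 CPM (1.84, adjusted p = 0.012). The G protein gamma subunit gene Ggamma30A had the largest drop in CPM of all called genes, at 1738, 1930.4, 1897 and 1850.2 CPM against 3049.6, 3664, 3768 and 3659 CPM (log2 fold change -0.93, SE 0.08, adjusted p = 6.7e-05), and the calcineurin subunit gene CanB2 was lower too (-0.90, adjusted p = 0.0014). With library size alone 12 were higher and 16 lower.

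Recognition molecules differed gene by gene rather than as a family. The Dpr and DIP proteins are immunoglobulin-domain surface proteins that bind each other in specific pairs and are used in partner choice. Of 31 tested members 7 were higher and 4 lower (22.6% and 12.9%), with a median of -0.01. DIP-delta was at 189, 185, 232 and 219 CPM in clk856 and at 76.4, 46.7, 51.8 and 47.7 CPM in nSyb (log2 fold change 1.89, SE 0.20, adjusted p = 0.00021). dpr15 was at 118, 167, 109 and 110.0 CPM against 22.8, 34.01, 23.5 and 48.3 CPM (log2 fold change 1.97, SE 0.29, adjusted p = 0.0016), and DIP-zeta was called higher as well (1.80, adjusted p = 0.01). DIP-eta (23.7 to 52.6 against 73.7 to 151 CPM), dpr20 (102 to 175 against 218 to 348 CPM) and dpr19 (301 to 388 against 471 to 569 CPM) were lower, with adjusted p of 0.032, 0.0063 and 0.006. The lower calls numbered 2 without clk856 ZT2 R2. Beat and Side proteins, another pair of interacting families, had 3 of 21 higher and 2 lower (14.3% and 9.52%). Without clk856 ZT2 R1 or ZT2 R2 none was higher. DIP-eta lost its call without nSyb ZT2 R2, clk856 ZT2 R1, clk856 ZT2 R2 or clk856 ZT14 R2 (adjusted p of 0.07 to 0.076).

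Of 78 other adhesion and axon guidance genes 20 were higher and 5 lower (25.6% and 6.41%), and 12 or 13 were higher without any 1 clk856 library. The Wnt ligand gene Wnt5 was at 114, 109, 109.8 and 109 CPM in clk856 and at 16.5, 7.63, 8.19 and 57.2 CPM in nSyb (log2 fold change 2.30, SE 0.60, adjusted p = 0.025), even across clk856 and raised in nSyb ZT14 R2. Leucine-rich repeat receptors of the Toll family, 18w, Toll-6 and Toll-7, were called higher (2.12, 1.32 and 1.39, adjusted p = 0.026, 0.0055 and 0.034). Fas3, a homophilic adhesion protein, was at 52.5 to 76.7 against 105 to 178 CPM (-1.15, adjusted p = 0.0052), and trn and the semaphorin receptor gene PlexB were lower as well (-0.89 and -0.81, adjusted p = 0.0082 and 0.0015). These genes are long: the median exon length of the list was 6258 bases, and of all protein-coding genes tested 2304 bases. Wnt5 kept its call only when the library left out was nSyb ZT2 R2, nSyb ZT14 R1 or nSyb ZT14 R2 (adjusted p of 0.057 to 0.061 otherwise). 18w lost its call without any 1 clk856 library (adjusted p of 0.052 to 0.073). Toll-7 lost its call without nSyb ZT2 R2, clk856 ZT2 R1, clk856 ZT2 R2 or clk856 ZT14 R1 (adjusted p of 0.071 to 0.1).

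Transcription factors held some of the sharpest single differences. Homeobox factors, which set neuronal identity, had 8 of 63 tested members higher and 11 lower (12.7% and 17.5%). The Hox gene Ubx was at 93.3, 88.6, 96.8 and 107 CPM in clk856 and had reads in only 1 nSyb library (0, 0, 5.18 and 0 CPM; log2 fold change 6.21, SE 1.34, adjusted p = 0.01). Scr, another Hox gene, was at 64.6, 50.04, 40.7 and 32.9 CPM against 0, 2.89, 5.66 and 2.71 CPM (log2 fold change 4.05, SE 1.01, adjusted p = 0.021), and the POU factor gene pdm2 at 71.7, 84.2, 42.2 and 78.3 CPM against 0, 0, 0 and 3.83 CPM (6.13, adjusted p = 0.015). The Hox cofactors exd and hth were called higher by smaller amounts (1.06 and 0.71, adjusted p = 0.0011 and 0.034). Lower factors were scro at 80.6, 62.6, 34.9 and 57.04 CPM against 336, 329, 269 and 227 CPM (log2 fold change -2.30, SE 0.25, adjusted p = 0.00027), hbn at 11.5 to 27.6 against 55.3 to 97.8 CPM (-2.02, adjusted p = 0.003) and CG11294 at 0 to 14.5 against 79.3 to 218 CPM (-4.38, adjusted p = 0.009). Among factors outside the homeobox class, TfAP-2 was at 14.6 to 22.00 against 84.5 to 124 CPM (-2.54, adjusted p = 0.00014) and the zinc finger gene gl, known from photoreceptors and some dorsal clock neurons, at 154, 204, 40.2 and 107 CPM against 4.598, 13.3, 0.1205 and 0 CPM (4.80, adjusted p = 0.021). The higher homeobox calls numbered 4 without clk856 ZT2 R2 and 5 without clk856 ZT14 R1. Scr lost its call without clk856 ZT2 R1, clk856 ZT2 R2 or clk856 ZT14 R1 (adjusted p of 0.052 to 0.07). hth lost its call without nSyb ZT2 R1, clk856 ZT2 R1, clk856 ZT2 R2 or clk856 ZT14 R1 (adjusted p of 0.052 to 0.082). gl lost its call without clk856 ZT2 R1 or clk856 ZT2 R2 (adjusted p of 0.057 to 0.072). With limma and weights per population, neither gl (adjusted p = 0.25) nor Scr (adjusted p = 0.0501) was called.

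Of 46 regulators of temporal identity, hormone response and maturation, 5 were higher and 3 lower (10.9% and 6.52%), and 9 were higher without nSyb ZT2 R1. Imp, an RNA-binding protein that marks early temporal windows in neural lineages, was at 403, 453, 419 and 446 CPM in clk856 and at 96.2, 121, 102 and 107 CPM in nSyb (log2 fold change 2.01, SE 0.12, adjusted p = 8.1e-06). Its counterpart Syp did not pass (411 to 671 against 601 to 862 CPM). The nuclear receptor genes Eip78C and ftz-f1 went in opposite directions, at 87.3 to 133 against 9.76 to 38.2 CPM (1.98, adjusted p = 0.0067) and 99.2 to 117 against 136 to 264 CPM (-1.07, adjusted p = 0.0065), with 29.4% of the exon bases of ftz-f1 shared with another gene. Of 21 activity-regulated genes 4 were higher and 1 lower. CG14186 was at 344 to 409 against 56.2 to 169 CPM (1.75, adjusted p = 0.0029), the kinase gene Sik3 at 47.9 to 72.1 against 5.55 to 19.6 CPM (2.07, adjusted p = 0.0098) and the transcription factor gene Mef2 at 219.6, 197, 200.1 and 244 CPM against 429.8, 406, 469.9 and 597 CPM (log2 fold change -1.14, SE 0.14, adjusted p = 0.00061).

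Cytoskeletal genes called higher included heavy chain genes of a dynein and a kinesin, microtubule motors used in axonal transport. Of 44 tubulins, actins and motors 14 were higher and 1 lower (31.8% and 2.27%), and 7 to 9 were higher without clk856 ZT14 R1, clk856 ZT14 R2 or nSyb ZT14 R1. The dynein heavy chain gene Dhc64C was at 280.2, 329, 260.0 and 221 CPM in clk856 and at 105, 80.2, 62.5 and 81.9 CPM in nSyb (log2 fold change 1.72, SE 0.19, adjusted p = 0.00029), and the kinesin heavy chain gene Khc was at 136 to 179.7 against 41.1 to 80.6 CPM (1.32, adjusted p = 0.0031). The microtubule protein futsch was at 1116 to 1548 against 669 to 857 CPM (0.69, adjusted p = 0.0049). Glycolysis and the tricarboxylic acid cycle had 4 of 33 higher and 3 lower (12.1% and 9.09%), near the 10.3% and 6.69% over all genes. mAcon1, the mitochondrial aconitase, was at 1194, 1309, 1289.7 and 1218 CPM against 453, 546, 515 and 544 CPM (log2 fold change 1.28, SE 0.09, adjusted p = 1.7e-05), and the glycolytic isomerase gene Tpi was lower (325 to 351 against 523 to 577 CPM, adjusted p = 0.00052). FASN1, the fatty acid synthase gene, was at 187 to 257 against 80.3 to 101 CPM (1.37, adjusted p = 0.00035). Vacuolar ATPase subunits had 3 of 20 higher and 4 lower, lysosome and autophagy genes 4 of 34 and 2, secretory pathway genes 5 of 54 and 2, and splicing factors 4 of 61 and 6. Of 304 long noncoding RNA genes 12 were higher and 14 lower (3.95% and 4.61%), and 19 or 20 were higher without nSyb ZT14 R2 or nSyb ZT2 R2. The most abundant of those called, lncRNA:Hsromega, a nuclear RNA induced by heat shock, was at 4658, 4490.4, 5031 and 3669 CPM against 6206, 6173, 5529.7 and 5799 CPM (log2 fold change -0.41, SE 0.09, adjusted p = 0.012).

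Some calls were of genes with almost no reads in a population. In 80 of the 805 higher genes every nSyb library had at most 3 reads, and in 9 of the 521 lower genes every clk856 library had at most 3. These genes could pass the read filter only through the population in which they were high. The nSyb libraries held reads on fewer genes and varied more among themselves than the clk856 libraries. The part of detection in these calls was not tested. The sensory receptor genes Gr28b and Ir56a had no reads in nSyb and were at 29.1 to 100.4 and 7.94 to 17.9 CPM in clk856, at least 167-fold and 32.7-fold higher. They were the 2 higher calls among 19 tested genes for chemosensory receptors and odorant-binding proteins. Another 2 of the 19 were lower (10.5% each way, beside 10.3% and 6.69% over all genes). The pickpocket channel gene ppk12 was at 4.05 to 14.4 CPM and at least 28.1-fold higher. Genes with general cell functions were also in this class: Nup75 of the nuclear pore (at least 74.9-fold), Gem3 of snRNP assembly (at least 88.2-fold) and vir of the m6A methyltransferase complex (at least 70.3-fold) had at most 1 read in every nSyb library. Vha100-2, an ATPase subunit, was at 13.5, 50.04, 3.79 and 12.2 CPM with no reads in nSyb (at least 56.8-fold by the mean). CG11997 was at 71.1, 3.75, 2.58 and 4.05 CPM with no reads in nSyb (at least 58.2-fold by the mean). In both genes 1 clk856 library was far above the others and raised the mean, so the bound does not hold for each library. Among genes in no list, the sharpest lower differences included CG2016 (137, 97.7, 46.3 and 99.7 CPM against 604, 1006, 772 and 823 CPM, adjusted p = 0.00014), CG9766 (5.36 to 11.4 against 66.02 to 95.3 CPM, adjusted p = 0.00024) and SP1029 (1.502 to 31.3 against 48.9 to 184 CPM, adjusted p = 0.022). CG2269 and CG14989 had 2 of the largest differences in CPM, at 4460.4 to 5069.9 against 1083 to 1522 CPM and at 739 to 1613 against 2314 to 2514 CPM. SP1029 lost its call without clk856 ZT14 R1 (adjusted p = 0.064). CG11997 was not called with limma and weights per population (adjusted p = 0.115).

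The calls were related to exon length, a property that was not used to choose any list. Of the protein-coding genes tested, 7.39% were higher among those of up to 1387 bases, 3.89% from 1389 to 2303 bases, 10.3% from 2304 to 3934 bases and 20.1% from 3935 bases up, these being 4 groups of nearly equal size. The lower shares were 5.34%, 9.83%, 5.78% and 6.15% in the same order. The ribosomal protein genes had a median exon length of 909.5 bases. Among 1897 other genes of 1446 bases or less, 3.58% were higher and 5.54% lower, with a median log2 fold change of -0.20. The adhesion list, with a median exon length of 6258 bases, had 25.6% higher, to be read beside the 20.1% of the longest group. The same holds for second messenger genes (5701.5 bases, 25.0%), vesicle cycle genes (4164 bases, 30.6%) and peptide processing genes (3946 bases, 36.8%). Other lists with medians in that group had lower shares, such as sodium, calcium, leak and TRP channels (8086 bases, 14.3%), temporal identity regulators (6727 bases, 10.9%) and potassium channels (5186.5 bases, 0%). The list of tubulins, actins and motors, with a median of 2424.5 bases, had 31.8% higher beside the 10.3% of the group that holds this length. The part of transcript length in these calls was not tested.

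Calls on the chromosome arms had similar shares except on the small chromosome 4. The shares higher ranged from 9.06% (X) to 10.6% (2L and 3R) and the shares lower from 5.51% (2L) to 6.94% (3R) on the large arms. On chromosome 4, 24 of 93 tested genes were lower (25.8%) and 8 higher (8.60%), with a median log2 fold change of -0.31. The count of lower genes was 19 to 24 when any library was left out and 25 to 29 with other scalings. The lower genes included unc-13, Cadps, PlexB, toy and onecut of the lists described here (-0.71 for onecut), together with pan, Crk and pho (log2 fold changes of -1.20, -0.76 and -0.71), and the higher ones RpS3A, ATPsynbeta and zfh2 (log2 fold changes of 0.37, 0.44 and 1.08). The chromosome was looked at after the calls were known. pho lost its call without clk856 ZT2 R1, clk856 ZT14 R1 or clk856 ZT14 R2 (adjusted p of 0.051 to 0.065).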

How the data were processed

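RNA of sorted EGFP-labeled brain cells was measured with a SMART-seq2 protocol in 8 libraries, 4 of clk856 and 4 of nSyb. The submitters' processing notes name bcl2fastq 2.20, STAR and edgeR, and the methods state that reads were aligned to dm6 with STAR and that PCR duplicates were removed with Picard. The files held deposited counts of reads per gene, which the authors had not normalized, and values that the authors had scaled to RPM and to RPKM. The counts were analysed. The RPM values add nothing to them, and the RPKM values rest on a gene span that includes introns, so neither was used. Reads assigned to no feature (5.53% to 8.94%) or to several (5.67% to 6.10%) were left out. The strand setting of the counting is not given in the sources used here, so overlapping genes cannot be told apart, and the share of exon bases that a gene has in common with others is given for some genes. Gene positions, on dm6, and exon lengths came from the Ensembl annotation of BDGP6.54, which 17161 genes matched by symbol and 606 by an older symbol, while 101 did not match.

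Genes were kept with edgeR's filterByExpr at a minimum count of 10, library sizes were scaled by TMM, and populations were compared over both times with edgeR's quasi-likelihood test (edgeR 4.0.16, R 4.3.3), an adjusted p under 0.05 being a call. A model with population, time and their interaction tested whether the difference changed with time. The scripts were tested on simulated data. Where a gene had at most 3 reads in every library of a population, its fold is a lower bound taken at 3 reads per library. The bound is on the ratio of the mean levels: the mean of the other population over the mean level of 3 reads. It holds no counting error and no spread between libraries, and 1 high library can raise it. Alternatives were library size alone, RLE and upper quartile scaling, no filter, a minimum count of 50, the likelihood ratio test, DESeq2 1.42.0, limma 3.58.1 with voom and weights per population, time as a covariate, a block for the replicate number, each time alone, and each library left out.

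The gene lists and members were chosen with earlier results of these data known. Named genes were, for each list, up to 3 called members with the highest and 3 with the lowest log2 fold change whose populations did not overlap, then the 10 highest and 10 lowest of the same kind in no list with a mean of at least 20 CPM, the 5 largest differences in CPM in each direction, and the cell type markers. Genes named outside this rule, after their values were seen, were RpS3A, RpL27A, COX4, COX5A, cype, Hsp26, stv, Hsc70-4, Hsp83, Hsp70Ba, DAT, Ddc, SerT, VAChT, VGlut, Gad1, ChT, Hug, 7B2, Phm, Rdl, GluClalpha, Nmdar2, Ca-alpha1T, Ca-alpha1D, stj, unc79, unc80, AP-2alpha, Eps-15, EndoA, Pka-R1, Toll-6, Toll-7, exd, hth, Syp, onecut, pan, Crk, pho, ATPsynbeta, zfh2, RpS10a, RpS14a, RpS14b, RpS15Aa and RpS15Ab. The G protein-coupled receptor and core clock sets were not described as lists of their own. Some of their members still counted in other lists, such as Pdf in the neuropeptide precursors and Rh3, Rh5 and Rh6 in the photoreceptor markers. The nSyb libraries are deposited with index numbers and those of clk856 are not, so a difference in handling between populations cannot be told apart from the populations themselves.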

Additional observations from a re-analysis of the deposited data

Results flagged for a closer look

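In 28 of 381 sets of 4 libraries examined (each named gene in each population), 1 library stood apart from the other 3 beyond Dixon's critical value for 4 values. Chance gives about 1 in 20 such sets. The genes had been chosen partly for their values.

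Of the clk856 libraries, ZT2 R1 stood apart for 6 genes. Hug was at 1283 CPM there and at 1.67 to 18.7 CPM in the others, and CG11997 at 71.1 CPM against 2.58 to 4.05 CPM. AstC was at 2503 CPM against 2035 to 2114 CPM, and the nSyb gene itself at 2494 CPM against 2145 to 2157 CPM. RpS3A was low at 743 CPM against 909 to 917 CPM, as was eEF2 at 1224 CPM against 1352 to 1368 CPM. In ZT2 R2, lncRNA:roX2 was at 475 CPM against 304 to 315 CPM, CG7414 was at 241 CPM against 173 to 184 CPM, eIF3m at 288 CPM against 256 to 259 CPM, dpr15 at 167 CPM against 109 to 118 CPM, and Hsp70Bb at 18.5 CPM against 13.8 to 14.3 CPM. In ZT14 R1, the dopamine genes ple and DAT were at 1566 CPM against 671 to 811 CPM and at 1287 CPM against 801 to 864 CPM, and futsch was at 1548 CPM against 1116 to 1186 CPM. In ZT14 R2, NaCP60E (983 against 1089 to 1102 CPM), hth (453 against 636 to 665 CPM) and CG9766 (5.36 against 10.4 to 11.4 CPM) were low, and the hemocyte marker Hml was at 25.2 CPM with no reads in the other clk856 libraries.

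Of the nSyb libraries, ZT2 R1 was high for RpS21 (72.7 against 35.3 to 38.8 CPM), RpS15Aa (157 against 110.5 to 117 CPM) and Frq1 (842 against 667 to 689.7 CPM), and low for Ggamma30A (3049.6 against 3659 to 3768 CPM), Lmx1a (36.1 against 106 to 111 CPM) and inaD (3.18 against 12.1 to 13.99 CPM). ZT2 R2 was high for DIP-eta (151 against 73.7 to 83.2 CPM) and for SerT (42.6 against 0 to 1.45 CPM). ZT14 R1 was low for ftz-f1 (136 against 245 to 264 CPM). ZT14 R2 was the only nSyb library with reads on repo, at 13.3 CPM.

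The difference between populations changed with time for Hsp68, by -3.01 on the log2 scale from ZT2 to ZT14 (edgeR interaction, adjusted p = 0.0139, and 0.0555 with the replicate number as a block). Both ZT14 libraries were below both ZT2 libraries in clk856 and above both in nSyb.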

How the results depend on the processing

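The 805 higher and 521 lower genes were 675 and 787 with library size alone, 1169 and 958 with DESeq2, and 791 and 474 with the replicate number as a block. All 675 of the first and 802 of the DESeq2 higher calls were among the 805. Each time alone, with 2 libraries against 2, gave 8 and 0 genes at ZT2 and 255 and 85 at ZT14; at ZT2 1095 higher and 612 lower genes had an unadjusted p under 0.05. Leaving out a library gave 609 to 897 higher and 333 to 496 lower genes, the lower count being 343 and 333 without clk856 ZT14 R1 and R2. The interaction with time was called for 1 gene, and for 0 with the block, where 443 genes had an unadjusted p under 0.05. Same-numbered libraries did not deviate together over all genes (r of -0.027 to 0.032). A shared effect on a part of the genes would not show in this r, so whether the numbers pair the libraries is not settled. Of 237 called genes that were named or could be named by the rule, 14 lost the call with library size alone, 2 with DESeq2, 27 with limma, 11 with the block and 23 to 51 when a library was left out. The 27 included Hug, Crz, gl, Scr, stv, Phm, CG11997, Toll-7, ND2, RpS3A, cype and norpA, and the clock markers Clk, Pdf, per, tim and vri. None of the 237 changed sign, but most parts of the rule took genes whose populations did not overlap, so their sign could hardly change. Of 94 counts over lists and directions, 17 moved by over 1.5 times with library size alone, 24 with DESeq2, 6 with the block and 15 to 31 when a library was left out, mostly counts of a few genes. The median of all genes moved to -0.14 with library size alone and to 0.14 with limma. The p-values measure the spread between libraries that may share a dissociation. About 500 against 1000 sorted cells per library and a larger spread within nSyb limit what low counts can show, and levels near 3 reads per library are at the limit of detection.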

Other observations

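A further 4 homeobox genes were lower in clk856. acj6, a POU factor, was at 3.13 to 23.8 against 37.7 to 78.96 CPM (log2 fold change -1.86, adjusted p = 0.0499 in edgeR, and 0.0686 to 0.107 when any library other than nSyb ZT2 R1 or clk856 ZT2 R1 was left out), and ct was at 98.2 to 141 against 315 to 419 CPM (-1.59, adjusted p = 0.00012). The LIM homeobox genes Lmx1a and Lim3 were at 21.3 to 33.1 against 36.1 to 111 CPM and at 22.3 to 26.8 against 51.1 to 96.4 CPM (-1.72 and -1.45, adjusted p = 0.011 and 0.0089). Of the innexins, which form gap junctions, shakB was lower at 278 to 313 against 362 to 532 CPM (-0.56, adjusted p = 0.021), the only call among 4 tested, which was lost without clk856 ZT2 R2 or ZT14 R2 (adjusted p of 0.0538 and 0.0616). The chaperonin subunit genes CCT2 and CCT3, which fold actin and tubulin, were higher at 166 to 177 against 41.6 to 107 CPM and at 101 to 118 against 35.3 to 68.9 CPM (1.35 and 1.20, adjusted p = 0.0068 and 0.0068). Neuronal calcium sensor genes were lower, Frq1 at 292 to 483 against 667 to 842 CPM and Nca at 337 to 388 against 591 to 624 CPM (-0.86 and -0.73, adjusted p = 0.0043 and 0.00047), with 23.8% of the exon bases of Nca shared with another gene. These genes were picked after their values were seen.

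Of the 1326 called genes 921 were in none of the lists, and 348 called genes had only a CG number as a name. The male dosage compensation RNA lncRNA:roX2 was at 304 to 475 against 733 to 867 CPM (-1.20, adjusted p = 0.0008), while on the X chromosome 9.06% of 1336 tested genes were higher and 6.51% lower, beside 10.3% and 6.69% over all genes.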
